A study of Mus musculus with 23 samples.

Results

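The nuclear-encoded subunits of the respiratory chain and of ATP synthase were compared between hippocampal cultures that had lost *Nedd8* and control cultures. The genes were chosen by name, as protein-coding genes of the mouse annotation with a *Nduf*, *Sdh*, *Uqcr*, *Cox4* to *Cox8* or *Atp5* subunit symbol, assembly factors left out, and by level, as at least 10 counts in at least 10 of the 23 libraries. Of 89 genes with such a symbol, 81 met the count rule, out of 56941 genes in the count tables. These were 37 subunits of complex I, 4 of complex II, 8 of complex III, 14 of complex IV and 18 of ATP synthase, which is called complex V here. *Cox5b-ps* is among them because the annotation lists it as protein coding.

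The respiratory chain sits in the inner mitochondrial membrane. Complexes I and II take electrons from NADH and succinate, complex III passes them to cytochrome c, and complex IV hands them to oxygen. Complexes I, III and IV pump protons, and ATP synthase uses the proton gradient to make ATP, on which neurons rely for ion pumping and for synaptic vesicle cycling. A few subunits are encoded by mitochondrial DNA and all others by the nucleus, so each complex except complex II is built from both genomes.

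All mice carried a homozygous floxed *Nedd8* allele (Nedd8cKO), and *Nedd8* encodes a small protein that is attached to other proteins in a way akin to ubiquitin. Hippocampal cells of newborn mice (postnatal day 0) were grown as mass cultures and infected on day 1 in vitro with lentivirus carrying RFP alone (RFP) or CRE recombinase with RFP (CRE), both under the *Synapsin1* promoter, which is active in neurons, so that other cells in the dish were not the target. RNA was taken after 12 days in culture according to the sample labels and after 13 according to Methods. The 23 libraries, 12 CRE and 11 RFP, are named by condition, by a first number from 1 to 3, read here as the culture, and by a library number. Libraries of the same culture may share animals, so the p-values measure the spread between libraries, which may in part be technical.

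The main comparison used 21 libraries, 11 CRE and 10 RFP, those of the count table that accompanies the study. Their totals ran from 7430401 to 17112815 counts. Libraries CRE 1-3 and RFP 2-4, both used, stood apart through a low share of counts from the mitochondrial chromosome (0.261% and 3.43%), as did CRE 3-3, which was not used (1.83%), while the other 19 used libraries lay between 6.997% and 11.1%. RFP 3-2, not used, had 24.2% of its counts on a ribosomal RNA gene, *Rn18s-rs5*. The counts of subunits called by edgeR are therefore also given for 19 libraries without these 4. *Nedd8* itself ranged from 5.92 to 17.96 CPM (counts scaled to library size, with trimmed mean of M-values factors) in CRE and from 44.1 to 76.0 in RFP, with a log2 fold change of -2.44 (SE 0.17, edgeR quasi-likelihood test, adjusted p = 6.98e-11). The groups did not overlap, in the direction of the labels.

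Of the 81 subunits, 6 were higher in CRE at an adjusted p under 0.05 (edgeR), against 16.4% of all 14488 genes tested. None was lower with edgeR, where 13.8% of all genes were called. At an unadjusted p under 0.05, 17 subunits were higher and 0 lower, beside 21.3% and 18.2% of all genes. DESeq2 called 11 higher and 1 lower, beside 18% and 15.1% of all genes. Among the 6 were *Cox6b2* and *Cox7a2l* of complex IV, *Sdhc* and *Sdhd* of complex II and *Uqcrc1* of complex III. The median log2 fold change over the 81 was 0.16, beside 0.02 over all genes tested. In 72 of the 81 (88.9%) the log2 fold change lay between -0.5 and 0.5, which held for 66.6% of all genes. The median SE was 0.18 for the subunits and 0.20 for all genes.

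In the 19 libraries, 11 subunits were higher (19.4% of all 14666 genes) and 2 were lower (18.7% of all genes), with a median of 0.07. At an unadjusted p under 0.05, 19 were higher and 3 lower there, beside 23.4% and 22.4% of all genes. The 5 added higher ones were *Ndufa11*, *Uqcrh*, *Cox4i1*, *Atp5f1b* and *Atp5pd*, and the lower ones were *Ndufs6*, an accessory subunit of complex I, and *Atp5if1*, the inhibitor protein of ATP synthase. Only *Cox6b2* and *Cox7a2l* had groups that did not overlap, both in the 21 libraries (4.72% of all genes did not overlap, in either direction) and in the 19 (7.83%).

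**Figure D1:**
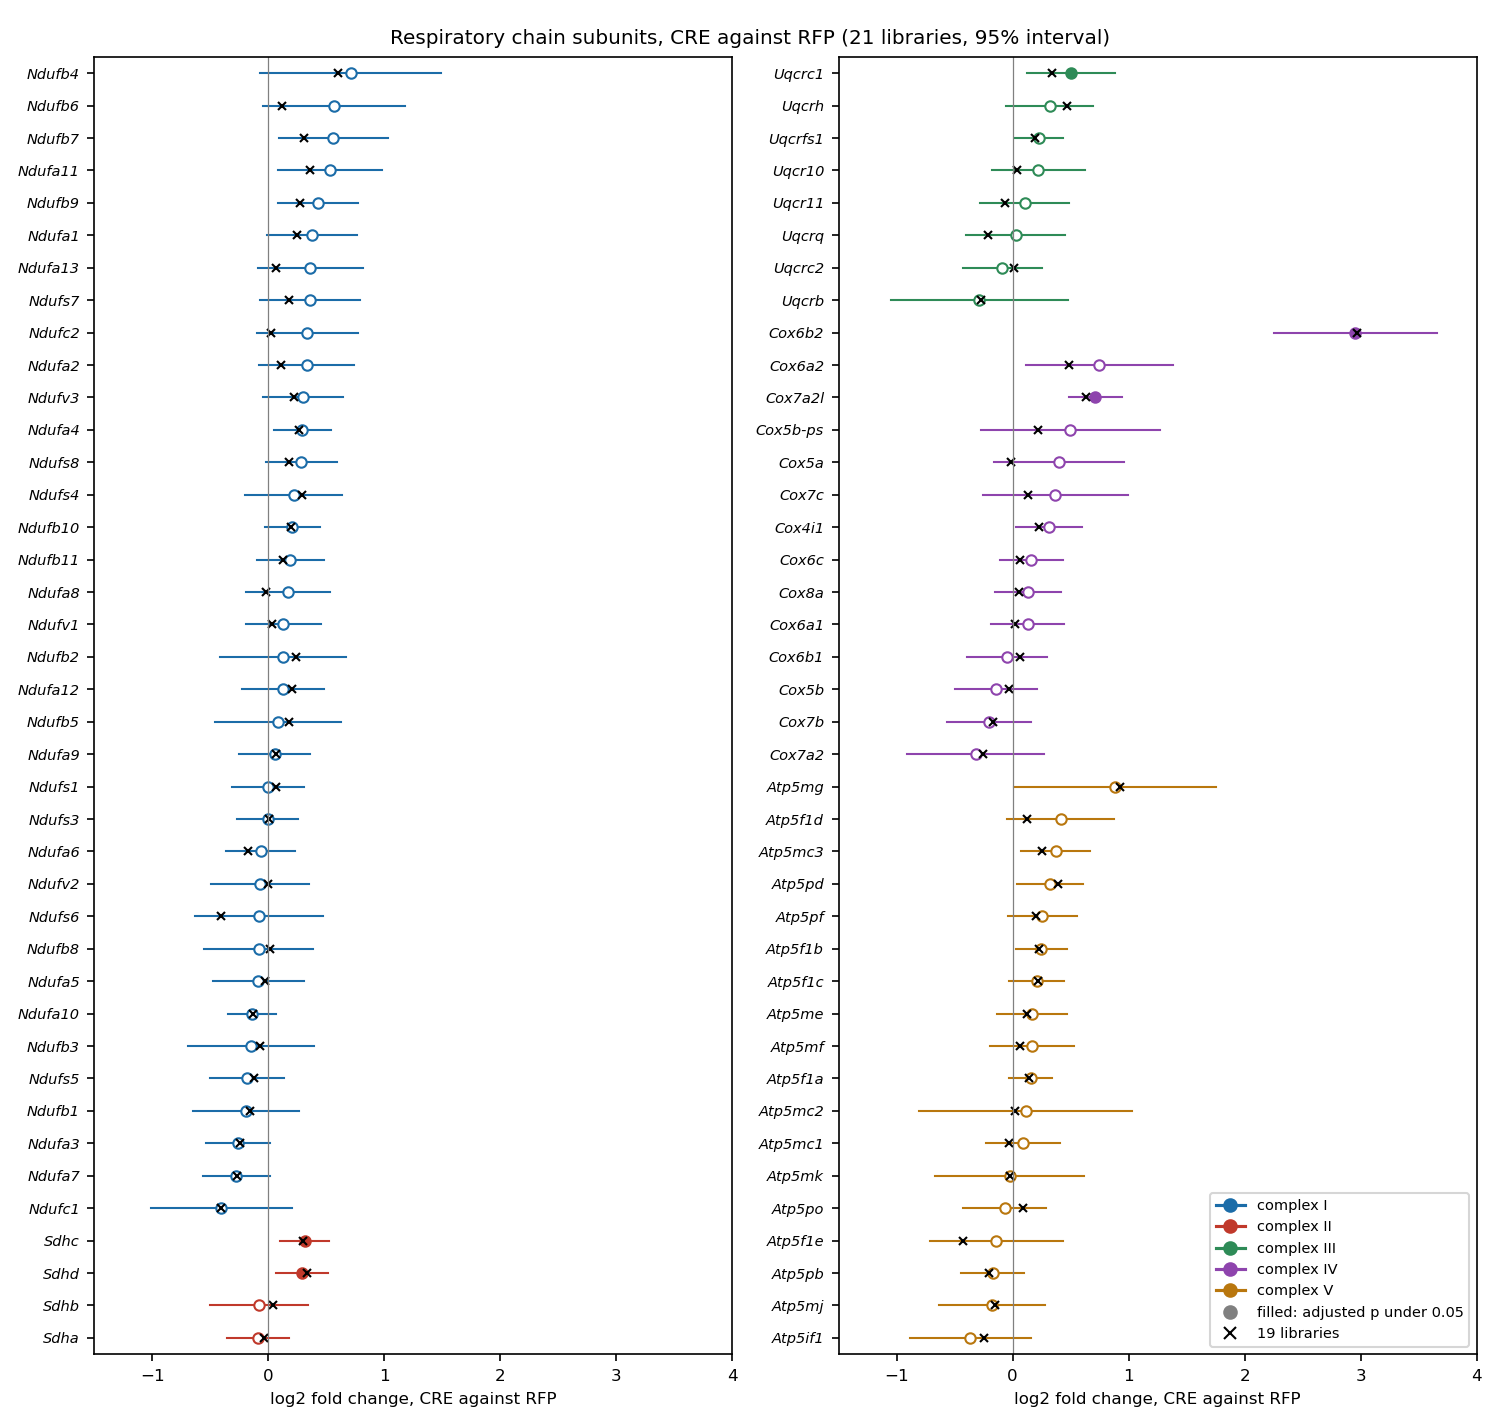
Log2 fold change, CRE against RFP, of 80 of the 81 subunits, by complex, with its 95% interval in the 21 libraries, filled where the adjusted p was under 0.05, and with a cross for the value in the 19 libraries. *Cox6b2* stands alone at 2.96, and most other subunits lie between -0.5 and 0.5.

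The sequence around the start sites was searched for motifs. In the 300 bases around each start (250 before, 50 after, GRCm39, canonical transcript of GENCODE M39), the NRF1 motif GCGCANGCG, bound by nuclear respiratory factor 1, was found on either strand for 15 of 81 subunits (18.5%) and for 8.1% of 21757 protein-coding genes. The ETS motif CCGGAAG, read by the GABP factors among others, was found for 13 of 81 subunits and 10.3% of all genes, and the YY1 motif AAGATGGC for 6.2% and 2.5%. Shares for the SP motif GGGCGG (40.7% and 42.5%), the NF-Y motif CCAAT (37.0% and 39.9%), TATAAA (12.3% and 13.2%) and the antioxidant response element core TGACNNNGC (12.3% and 12.5%) were close to those of all genes. The subunits' stretches held a median of 17 CpG, against 11 over all genes, and the part of base composition in these shares was not tested. These are matches of letters, not tested sites.

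An NRF1 match of 1 gene per complex is printed to show what was found, with the motif in capitals and the gene's own strand 5′ to 3′. In each complex the gene was the one with the highest level per kilobase among those whose match lay far enough inside the stretch for the flanking bases to be shown. *Ndufa8*, with a higher level than *Ndufb11*, has its match at the edge.
Ndufb11 (complex I), chrX:20484483-20484507, minus strand: tcccaatcGCGCACGCGcttttgct
Sdhd (complex II), chr9:50515212-50515236, minus strand: gctggggtGCGCACGCGcggtggca
Uqcrc1 (complex III), chr9:108765714-108765738, plus strand: ccttacagCGCTTGCGCctcagact
Cox6a1 (complex IV), chr5:115487163-115487187, minus strand: ggaacgggGCGCATGCGcgctctcg
Atp5me (complex V), chr5:108582299-108582323, minus strand: tcactgcgGCGCATGCGcctttctg
The *Uqcrc1* match reads on the other strand. *Cox6a1* had 3 matches and *Atp5me* 2, and the first of each is in capitals. In both, the next base, in lower case, completes an overlapping match on the other strand. *Sdhd* and *Uqcrc1* were the 2 of the 6 higher subunits with an NRF1 match.

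Complex I, NADH dehydrogenase, had 1 higher subunit of 37, where 16.4% of all genes were higher, and a median log2 fold change of 0.13. Its counts in the 19 libraries were 2 higher and 1 lower, beside 19.4% and 18.7% of all genes. Among its core subunits, which carry out electron transfer, *Ndufv2* had a log2 fold change of -0.07 (adjusted p = 0.835) and *Ndufs7* of 0.36 (adjusted p = 0.213). The 30 accessory subunits, which surround the core, ran from -0.41 (*Ndufc1*) to 0.71 (*Ndufb4*) with a median of 0.15. *Ndufb4* had an SE of 0.38 (edgeR adjusted p = 0.169), and 41.3% of its 50-base words also occur elsewhere in the genome. Its highest CRE value was 32.6 CPM, in CRE 2-3, beside a CRE median of 5.34 and an RFP median of 5.14. None of the accessory subunits was called by edgeR in the 21 libraries, beside 30.2% of all genes in either direction. At an unadjusted p under 0.05 there were 4 of the 30, beside 21.3% of all genes higher and 18.2% lower. DESeq2 called *Ndufa11*, *Ndufb7* and *Ndufb9* higher and *Ndufs6* lower, beside 18% and 15.1% of all genes. *Ndufs6* ranged from 9.40 to 87.6 CPM in CRE and from 19.5 to 38.1 in RFP. Its highest CRE value is that of CRE 1-3, and without the 4 libraries that stand apart CRE ran from 9.40 to 25.1 and RFP from 19.5 to 29.8, with a log2 fold change of -0.41 (adjusted p = 0.0329) in place of -0.08 (adjusted p = 0.859). Over 15 alternatives its log2 fold change ran from -0.67 to 0.18, and it was above 0 in 3, so its direction depends on the libraries and settings.

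*Ndufa4*, named for complex I and since assigned to complex IV, had the highest level per kilobase of canonical transcript among the *Nduf* genes, 174 ± 24.1 CPM per kb in RFP (SD, n = 10). *Ndufc2* followed with 141 ± 16.4. *Ndufb2* was lowest at 3.49 ± 0.833, over a canonical transcript of 4389 bases that is long for this gene family, so its rank depends on the transcript chosen. The log2 fold change of *Ndufa4* was 0.29 (SE 0.12, adjusted p = 0.0686).

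Complex II, succinate dehydrogenase, is wholly nuclear-encoded and also acts in the TCA cycle. Its 2 membrane anchors were higher in CRE and its 2 catalytic subunits were not called, in the 21 and in the 19 libraries. Of all genes, 16.4% and 19.4% were higher there. *Sdhc* (ENSMUSG00000058076, chr1:170954732-170978223, GRCm39) ranged from 85.2 to 143 CPM in CRE libraries (median 110) and from 66.4 to 105 in RFP (median 87.3), with a log2 fold change of 0.31 (SE 0.10, edgeR adjusted p = 0.0214). *Sdhd* (ENSMUSG00000000171, chr9:50507642-50515195) ranged from 86.8 to 178 CPM in CRE libraries (median 151) and from 96.0 to 139 in RFP (median 114), with a log2 fold change of 0.29 (SE 0.11, edgeR adjusted p = 0.0443). For each gene 7 of 11 CRE libraries were above every RFP library, and the groups overlapped.

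The lowest CRE value of *Sdhd*, 86.8 CPM, came from CRE 1-3, which at the same time held the highest value of *Sdhc*. Without the libraries that stand apart the log2 fold changes were 0.30 for *Sdhc* (adjusted p = 0.00540) and 0.34 for *Sdhd* (adjusted p = 0.00230). *Sdhd* was not called over all 23 libraries (0.23, adjusted p = 0.174) or with culture and library number as a block. *Sdha*, the flavoprotein, and *Sdhb*, the iron-sulfur subunit, had log2 fold changes of -0.09 (adjusted p = 0.663) and -0.08 (adjusted p = 0.806). Per kilobase *Sdhd* was highest in RFP (90.4 ± 9.16 CPM per kb) and *Sdhb* lowest (5.45 ± 1.46).

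Complex III, the cytochrome bc1 complex, had 1 higher subunit of 8 (16.4% of all genes) and 2 in the 19 libraries (19.4% of all genes). Its median log2 fold change was 0.16. *Uqcrc1* (ENSMUSG00000025651, chr9:108765701-108778710), a core subunit on the matrix side, ranged from 94.3 to 412 CPM in CRE libraries (median 146) and from 92.8 to 160 in RFP (median 111), with a log2 fold change of 0.51 (SE 0.18, edgeR adjusted p = 0.0386). The call was lost with culture as a block (0.46) and with culture and library number as a block (0.46). The 412 CPM of CRE 1-3 are far above the next CRE value, 162, and the lowest CRE value lies inside the RFP range. In the 19 libraries, 8 of 10 CRE libraries were above every RFP library, and the log2 fold change was 0.34 (SE 0.09, adjusted p = 0.00418). *Uqcrc1* shares 502 exonic bases with *Gm57049* on the opposite strand.

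The other core genes of complex III were *Uqcrc2*, with -0.09 (adjusted p = 0.739), and *Uqcrfs1*, the Rieske iron-sulfur protein, with 0.23 (adjusted p = 0.0978). The hinge protein *Uqcrh* had 0.32 in the 21 libraries (adjusted p = 0.203) and 0.47 in the 19 (adjusted p = 6.80e-04). The other small subunits ran from -0.29 (*Uqcrb*) to 0.22 (*Uqcr10*). *Uqcrb* had 0 counts in CRE 1-3 and 58.7% of its 50-base words also occur elsewhere in the genome, so its counts are uncertain. *Uqcr10* was highest per kilobase (157 ± 25.7 CPM per kb in RFP) and *Uqcr11* lowest (15.3 ± 2.97).

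Complex IV, cytochrome c oxidase, held both subunits whose groups did not overlap. It had 2 higher subunits of 14 (16.4% of all genes) and 3 in the 19 libraries (19.4% of all genes). *Cox6b2* (ENSMUSG00000051811, chr7:4754789-4756093), the testis isoform of subunit 6b, ranged from 3.18 to 12.99 CPM in CRE libraries (median 7.79) and from 0.298 to 2.68 in RFP (median 0.727). In raw counts this was 31 to 155 per CRE library (median 90) and 5 to 26 per RFP library (median 9), so the RFP values rest on few reads. The log2 fold change was 2.96 (SE 0.34, edgeR adjusted p = 3.18e-07), with all 11 CRE libraries above every RFP library. It was 2.97 in the 19 libraries and 2.798 over all 23. In each culture it was higher in CRE, by 3.66, 2.95 and 2.58 on the log2 scale in the 19 libraries.

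*Cox6b1*, the isoform of most tissues, ranged from 16.8 to 79.6 CPM in CRE libraries (median 56.3) and from 43.7 to 67.2 in RFP (median 59.0), with a log2 fold change of -0.05 (SE 0.17, 95% interval -0.39 to 0.29, adjusted p = 0.864). *Cox6b2* made up 0.589% to 4.44% of the counts of both genes in RFP (median 1.40%) and 5.76% to 32.4% in CRE libraries (median 12.2%). The mean log2 ratio of *Cox6b2* to *Cox6b1* (of CPM plus 0.5) was -2.77 ± 0.92 in CRE (SD, n = 11) and -5.33 ± 0.58 in RFP (n = 10), a difference of 2.56 (two-sided permutation test, 100000 resamples, p = 2.00e-05, the smallest they can give, adjusted over 4 pairs 8.00e-05). All 11 CRE libraries had a higher ratio than every RFP library. The highest share, 32.4%, came from CRE 1-3, and the difference was 2.39 without the libraries that stand apart.

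The stretch from 110 to 59 bases before the canonical start is shown for both isoforms, the part of *Cox6b2* that no annotated exon covers. Capitals mark CCAAT, which reads on the other strand as ATTGG.
Cox6b2, chr7:4756094-4756145, minus strand: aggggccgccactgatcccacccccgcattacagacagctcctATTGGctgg
Cox6b1, chr7:30325675-30325726, minus strand: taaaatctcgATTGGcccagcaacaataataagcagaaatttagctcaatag
Each stretch held 1 such match and none of the other motifs. The *Cox6b2* stretch was 63.5% G and C and the *Cox6b1* stretch 34.6%.

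*Cox7a2l* (ENSMUSG00000024248, chr17:83765970-83824759) is a relative of subunit 7a. It has been described as joining complexes III and IV into supercomplexes, a function not tested in these mice. *Cox7a2l* ranged from 108 to 219 CPM in CRE libraries (median 142) and from 70.4 to 98.7 in RFP (median 85.8). The log2 fold change was 0.71 (SE 0.11, edgeR adjusted p = 2.65e-05). All 11 CRE libraries were above every RFP library, and within cultures the difference was 0.63, 0.62 and 0.62 in the 19 libraries. Without the highest value, 219 CPM in CRE 1-3, the other CRE libraries of the 19 lay between 108 and 155 CPM. Of its 50-base words, 46.8% also occur elsewhere in the genome, and reads that match several places may have been left out. It also shares 727 exonic bases with *Gm66623* and 89 with *Eml4* on the opposite strand. The strand setting of the counting was not given, so its counts may miss reads of its own or hold reads of these genes. *Eml4* had a log2 fold change of -0.16 (adjusted p = 0.334).

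*Cox7a2*, the general isoform of subunit 7a, had a log2 fold change of -0.32 (SE 0.29, adjusted p = 0.447). *Cox6a2*, the heart and muscle isoform of subunit 6a, had 8.51 to 48.8 CPM in CRE and 4.32 to 22.9 in RFP (0.75, SE 0.31, adjusted p = 0.0685), while *Cox6a1*, the general isoform, had 0.13 (adjusted p = 0.579). The log2 ratio of *Cox6a2* to *Cox6a1* differed by 0.60 between groups (permutation test, p = 0.0386, adjusted p = 0.0514), and the groups overlapped. *Cox4i1*, the general isoform of subunit 4, had 0.32 (adjusted p = 0.0867), and *Cox8a* 0.13 (adjusted p = 0.532). *Cox8a* (428 ± 63.3 CPM per kb in RFP) and *Cox6a1* (400 ± 51.5) led complex IV per kilobase and did not differ beyond their spread, and *Cox6b2* was lowest (1.65 ± 1.10).

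The tissue-restricted isoforms *Cox4i2*, *Cox7a1*, *Cox7b2*, *Cox8b* and *Cox8c*, with *Ndufa4l2*, *Ndufb11b* and a second *Atp5po* entry, did not meet the count rule. *Cox4i2*, the hypoxia-responsive isoform of subunit 4, had at most 14 counts in a CRE library and at most 2 in an RFP library. *Cox8c*, *Ndufb11b* and the second *Atp5po* had no count in any library. *Ndufa4l2* had at most 37 counts in CRE and 11 in RFP.

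**Figure D2:**
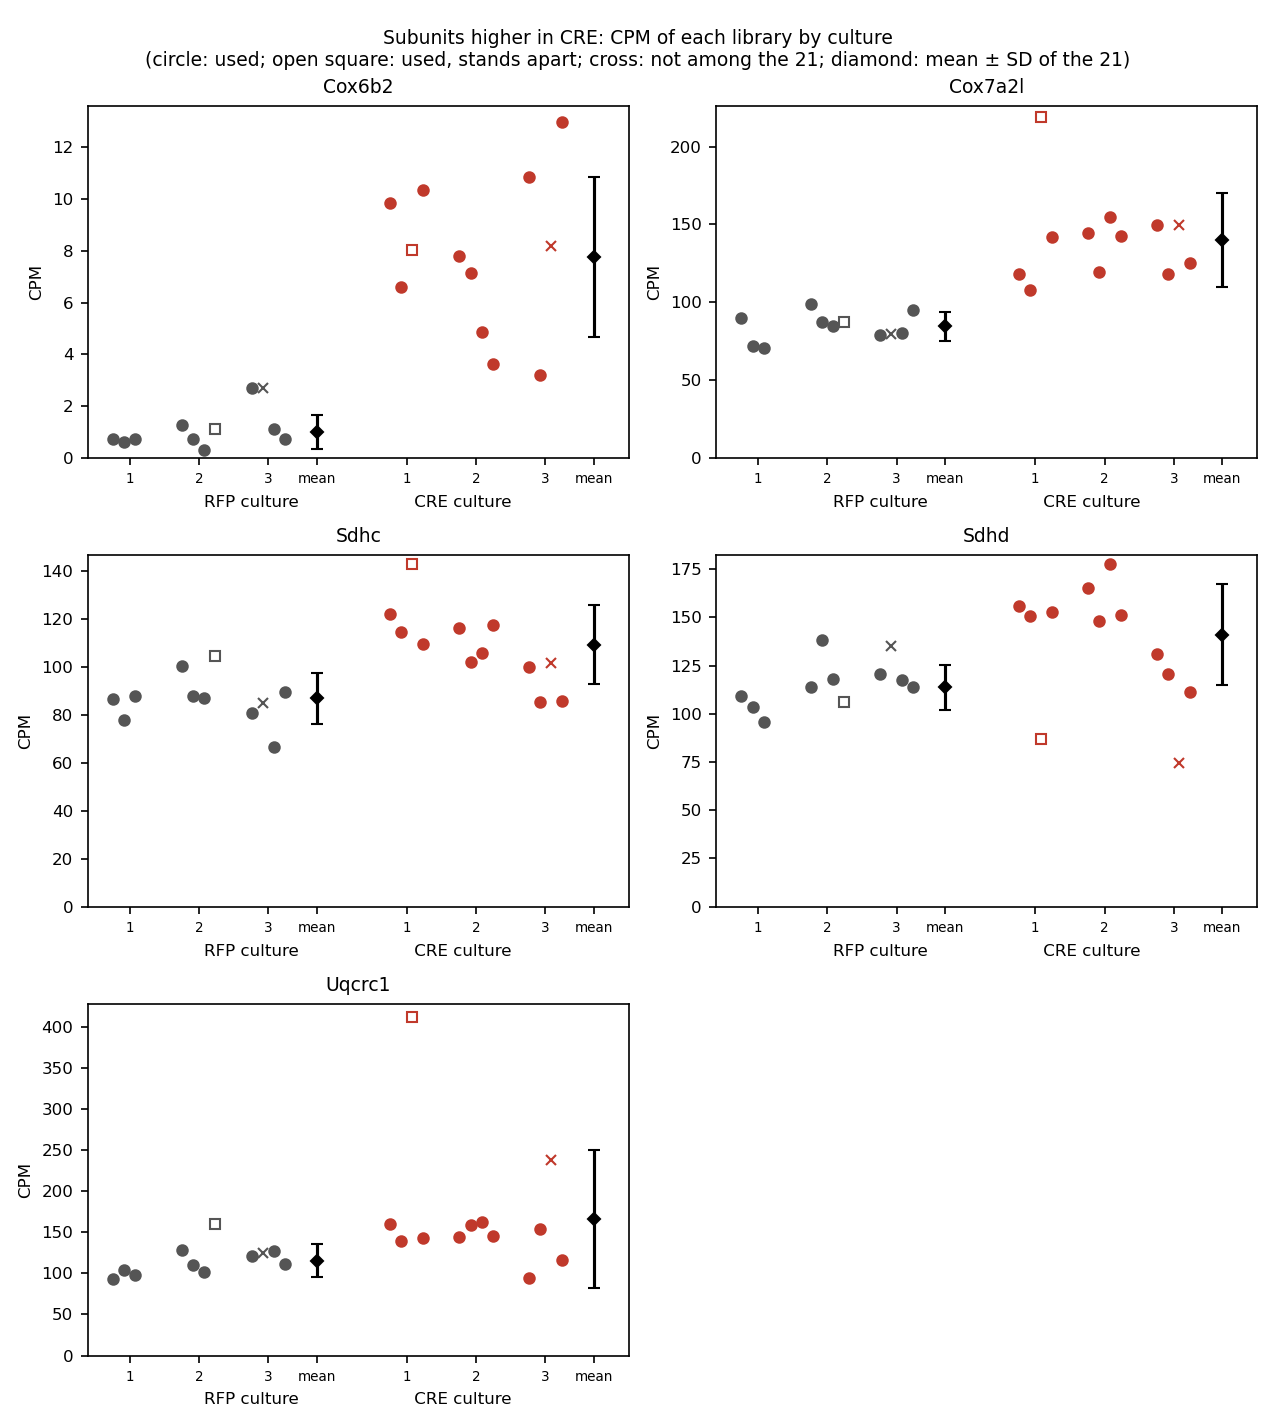
CPM of 5 of the 6 subunits higher in CRE, each point a library, by condition and culture, with the mean and SD of the 21 libraries as diamonds, open squares for the used libraries that stand apart and crosses for the libraries not used. The groups of *Cox6b2* and *Cox7a2l* do not overlap, and *Uqcrc1* reaches 412 CPM in CRE 1-3.

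Complex V, ATP synthase, had no called subunit among 18 with edgeR, beside 30.2% of all genes in either direction. It had 4 higher ones at an unadjusted p under 0.05 (21.3% of all genes), and 1 higher with DESeq2 (*Atp5mc3*, 18% of all genes). There were 2 higher and 1 lower in the 19 libraries, beside 19.4% and 18.7% of all genes. Its median log2 fold change was 0.16. The catalytic head was led by *Atp5f1b*, the beta subunit, with 897 to 1707 CPM in CRE libraries (median 1384) and 983 to 1269 in RFP (median 1125), and 9 of 11 CRE libraries above every RFP library. The log2 fold change was 0.25 (SE 0.11, adjusted p = 0.0807), and 0.23 (adjusted p = 0.0426) in the 19 libraries. *Atp5f1b* was also highest per kilobase of all complexes' leading genes, at 574 ± 57.1 CPM per kb in RFP, ahead of the alpha subunit *Atp5f1a* with 341 ± 22.5, beyond their spread.

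The c subunit of the rotor ring is encoded by *Atp5mc1*, *Atp5mc2* and *Atp5mc3*, which give the same mature protein. *Atp5mc3* had 168 to 466.2 CPM in CRE and 155 to 237 in RFP (0.37, SE 0.14, adjusted p = 0.0538), and *Atp5mc1* had 0.09 (adjusted p = 0.716). The log2 ratio of *Atp5mc3* to *Atp5mc1* was 1.31 ± 0.32 in CRE (SD, n = 11) and 1.01 ± 0.16 in RFP (n = 10), a difference of 0.30 (permutation test, p = 0.0131, adjusted p = 0.0263), with 5 of 11 CRE libraries above every RFP library. For *Atp5mc2* to *Atp5mc1* the difference was 0.01 (adjusted p = 0.978). Of the 50-base words of *Atp5mc1* and *Atp5mc2*, 84.4% and 88.4% occur elsewhere in the genome. The shared denominator *Atp5mc1*, and thus both ratios, are therefore uncertain. So is the level of *Atp5mc2*, the lowest of complex V at 3.23 ± 1.95 CPM per kb.

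The inhibitor *Atp5if1* ranged from 3.95 to 90.1 CPM in CRE and from 66.2 to 96.8 in RFP. Its lowest value came from CRE 1-3. In the 21 libraries its log2 fold change was -0.37 (SE 0.25, adjusted p = 0.301), and in the 19 it was -0.25 (SE 0.10, adjusted p = 0.0476), where CRE ran from 55.3 to 90.1. The remaining subunits of the stalk and the membrane part ran from -0.18 (*Atp5mj*) to 0.88 (*Atp5mg*, SE 0.42, adjusted p = 0.123). *Atp5mg* had a median of 28 counts in RFP, and 68.7% of its 50-base words occur elsewhere in the genome.

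The summed CPM of the 81 genes ran from 5804 to 11845 in CRE libraries (median 7933) and from 6122 to 7578 in RFP (median 6891). The highest sum was that of CRE 1-3, while the lowest were CRE 3-1 and CRE 3-4. In the 19 libraries the sum was 7916 to 8018 in CRE and 6122 to 6602 in RFP of culture 1, 7909 to 8858 and 6710 to 7204 in culture 2, and 5804 to 7307 and 6781 to 7560 in culture 3. Each CRE library thus lay above every RFP library of its culture in cultures 1 and 2, and not in culture 3, where 2 of 3 lay below all. The share of counts on *Rn18s-rs5* was 1.47% to 2.89% in CRE and 0.856% to 2.62% in RFP of culture 1, and 1.53% to 2.64% and 0.950% to 1.34% in culture 2. In culture 3 it was 1.02% and 0.963% in CRE 3-1 and CRE 3-4, with the low sums, 4.06% in CRE 3-2 and 1.21% to 1.74% in RFP. The part of this share in the sums was not tested. CPM are shares of a library, so fewer cells of a type and less RNA per cell cannot be told apart here.

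**Figure D3:**
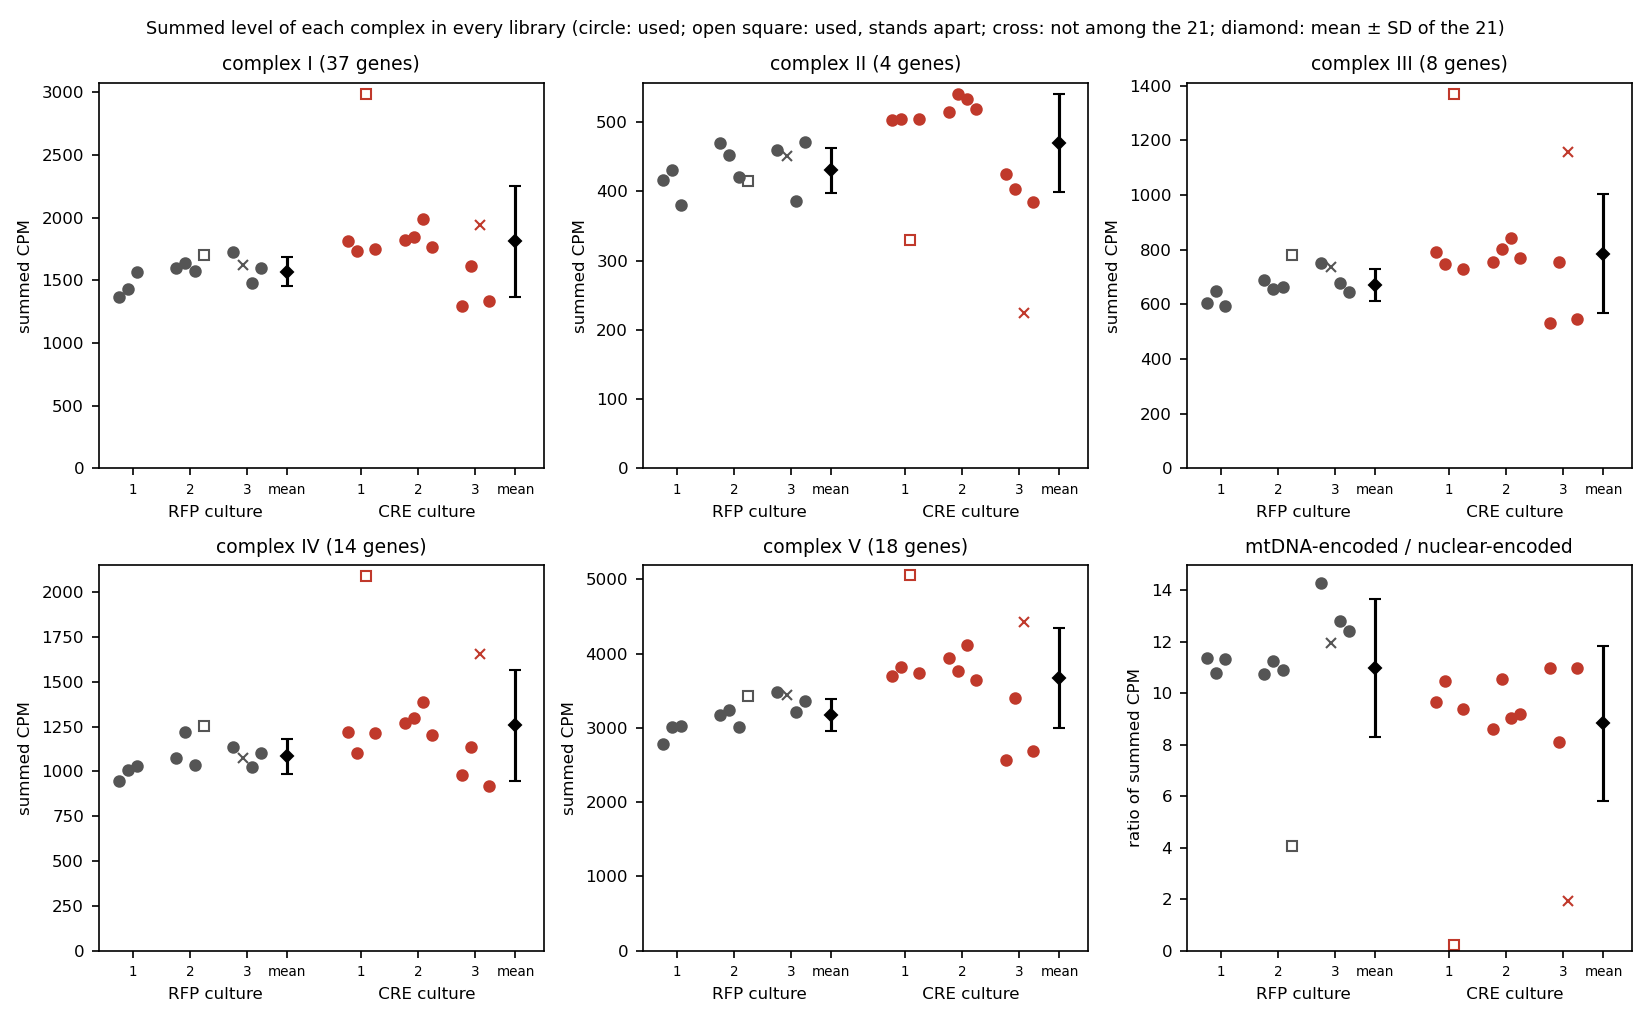
Summed CPM of the subunits of each complex in every library, by condition and culture, and the ratio of the summed CPM of the 13 mtDNA-encoded subunits to that of the 81 nuclear-encoded ones, with mean and SD of the 21 libraries as diamonds. In the sums the CRE circles of cultures 1 and 2 lie high, and those of culture 3 low or among the RFP libraries. CRE 1-3 and the unused CRE 3-3 lie above all RFP libraries for complexes I, III, IV and V and below them for complex II, and have the lowest ratios.

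The difference between CRE and RFP was also fitted within each culture. This takes a culture number to mean the same in both groups, which the labels do not state and the correlations of same-numbered libraries (0.03, 0.02 and 0.14) do not show, so a within-culture difference may set unrelated cultures against each other. In the 21 libraries no subunit passed the test of the condition by culture term (edgeR, 1 of 14488 genes did), while 11 of 81 had an unadjusted p under 0.05, against 4.11% of all genes. In the 19 libraries 1 subunit passed, *Atp5f1c*, against 0.245% of all genes, and 24 of 81 had an unadjusted p under 0.05, against 9.38% of all genes. The median log2 fold change of the subunits was 0.22 in culture 1, 0.23 in culture 2 and -0.21 in culture 3, beside -0.01, 0.01 and 0.03 over all genes. In culture 1, 62 of 81 were higher in CRE, in culture 2, 65, and in culture 3, 17. Higher in cultures 1 and 2 and lower in culture 3 were 40 of 81 (49.4%) and 8.3% of all genes. Subunits within a library are not independent of each other, so these shares are descriptions.

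*Atp5f1c*, the gamma subunit that turns inside the catalytic head, had 143 to 147 CPM in the CRE libraries of culture 1 other than CRE 1-3, 139 to 149 in culture 2 and 103 to 108 in culture 3. The RFP libraries of the 19 had 90.8 to 121, 94.4 to 113 and 128 to 137. The log2 fold changes were 0.44 (SE 0.12), 0.49 (SE 0.11) and -0.33 (SE 0.12), with an adjusted p of 0.0306 for the difference between cultures. The order of the groups turned around in culture 3, without overlap in any of the 3 cultures. *Atp5f1c* shares 357 exonic bases with *Kin* and 336 with *Gm75234* on the opposite strand. Named after their values were seen, *Atp5pb*, the peripheral stalk subunit b, had 0.00, 0.02 and -0.77 (adjusted p = 0.0558), and *Atp5mc3* had 0.55, 0.37 and -0.30 (adjusted p = 0.0671).

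Among the 6 subunits called higher, *Cox6b2* and *Cox7a2l* were higher in every culture by 0.62 or more. *Sdhc* was higher by 0.42, 0.25 and 0.19. *Sdhd* had 0.54, 0.36 and 0.04 and *Uqcrc1* 0.55, 0.41 and 0.01, with adjusted p of 0.409 and 0.496 for the difference between cultures. By complex, the medians in cultures 1, 2 and 3 were 0.20, 0.15 and -0.21 for complex I, 0.35, 0.31 and -0.13 for complex II, 0.21, 0.18 and -0.21 for complex III, 0.23, 0.24 and -0.15 for complex IV and 0.24, 0.27 and -0.29 for complex V. Every complex thus had positive medians in cultures 1 and 2 and a negative one in culture 3.

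*Nedd8* was lower in CRE in every culture, by -2.51, -2.59 and -2.14 (adjusted p of the difference 0.851). In CRE of the 19 libraries it had 5.92 to 12.97 CPM in culture 1, 6.95 to 12.2 in culture 2 and 12.7 to 17.96 in culture 3. In RFP it had 44.1 to 61.4, 44.9 to 67.1 and 63.5 to 69.1 CPM, so both groups had their highest medians in culture 3. The summed CPM of 6 neuronal markers (*Rbfox3*, *Map2*, *Tubb3*, *Snap25*, *Syt1*, *Nefl*) was lower in CRE in each culture, with 3095 to 3722 against 5155 to 5477 in culture 1, 2761 to 4426 against 5493 to 5636 in culture 2 and 2557 to 3860 against 4682 to 5363 in culture 3, and 4 of the 6 were called lower. Of 4 markers of dividing cells all 4 were lower, and of 8 of the oligodendrocyte lineage 5. Beside these marker counts, 16.4% of all genes tested were higher and 13.8% lower. Of 6 astrocyte markers 1 was higher and 2 lower, of 6 GABA interneuron markers 2 and 1, and of 6 endothelial and mural markers tested 2 and 2. Of 2 microglia markers tested 1 was higher, with summed levels of at most 7.698 CPM in CRE and 6.56 in RFP, and the summed level of 4 fibroblast markers ran from 6.23 to 216 CPM in CRE and from 7.72 to 95.6 in RFP. No marker was at 0 in all libraries. The part of cell composition in the subunits' differences was not tested.

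**Figure D4:**
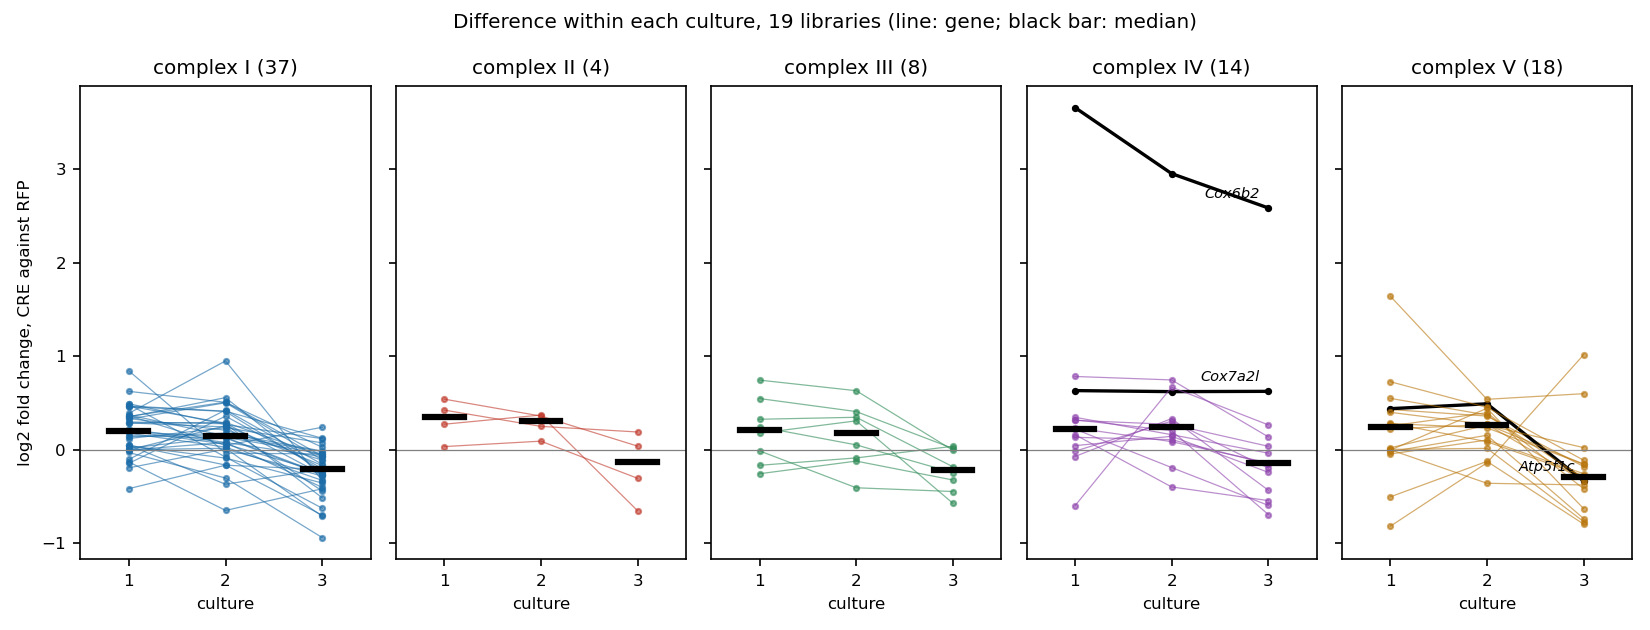
Log2 fold change, CRE against RFP, within each of the 3 cultures in the 19 libraries, a line for each subunit and a black bar for the median of each complex (cultures have no order). The medians are above 0 in cultures 1 and 2 and below 0 in culture 3, and *Cox6b2* and *Cox7a2l* stay above 0 in all.

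The subunits encoded by mitochondrial DNA are the partners of these genes. None of 13 was called in the 21 libraries with edgeR or DESeq2, 0 had an unadjusted p under 0.05, and all had negative log2 fold changes, with a median of -0.24. In the 19 libraries 3 were lower, beside 18.7% of all genes. They were *mt-Cytb* (-0.31, edgeR adjusted p = 0.00231), *mt-Nd5* (-0.24, adjusted p = 0.0226) and *mt-Nd4* (-0.19, adjusted p = 0.0495). For 5 of the 13, all 50-base words also occur elsewhere in the genome. So do 99.0% of those of *mt-Nd3*, 62.2% of *mt-Nd4*, 51.1% of *mt-Co1*, 8.3% of *mt-Nd2* and 7.6% of *mt-Nd5*. None of those of *mt-Cytb*, *mt-Nd1* and *mt-Nd6* do. The 5 and *mt-Nd3* were close to the floor, with RFP means from 1.14 (*mt-Nd3*) to 12.1 CPM (*mt-Co2*) in the 21 libraries. The other mtDNA-encoded genes had RFP means from 3182 (*mt-Nd6*) to 23030 CPM (*mt-Co1*), so the sum of the 13 rests on these. The ratio of the summed CPM of the 13 to that of the 81 nuclear genes was 8.09 to 10.98 in CRE (9.69 ± 1.01, SD, n = 10) and 10.7 to 14.3 in RFP (11.8 ± 1.18, n = 9) of the 19 libraries. Within each culture of the 19, every RFP library had a higher ratio than every CRE library. The 19 were chosen in part by the mitochondrial share, on which this ratio and the mtDNA-encoded levels rest. They are thus no separate test of either. In the 21 libraries the ratio ran from 0.208 to 10.98 in CRE and from 4.05 to 14.3 in RFP, and the groups overlapped. RFP 2-4, with 4.05, lay below every CRE library of culture 2. In the 19 libraries the mtDNA-encoded sum itself was 78255 ± 4373 CPM in CRE (SD, n = 3) and 71600 ± 2816 in RFP (n = 3) of culture 1. It was 77750 ± 7214 (n = 4) and 76440 ± 4022 (n = 3) in culture 2, and 62424 ± 2915 (n = 3) and 94570 ± 11557 (n = 3) in culture 3. Its groups were apart, with CRE lower, in culture 3 and not in cultures 1 and 2.

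Further mitochondrial and energy genes were counted over lists in the 21 libraries, with the counts in the 19 libraries beside them. For all lists, the shares of all genes tested were 16.4% higher and 13.8% lower, and 19.4% and 18.7% in the 19. Of 17 TCA cycle and pyruvate dehydrogenase genes, 5 were higher and none lower (0 at an unadjusted p under 0.05, 0 with DESeq2), with a median of 0.18 (7 and 0 in the 19). *Idh3b*, a subunit of isocitrate dehydrogenase, had 0.51 (SE 0.10, edgeR adjusted p = 2.67e-04), *Suclg1* of succinyl-CoA ligase 0.48 and *Dlst* of the 2-oxoglutarate dehydrogenase complex 0.38. Of 50 assembly factors tested, 8 were higher and 7 lower, with a median of 0.07 (11 and 9 in the 19). *Uqcc1* (0.46) and *Surf1* (0.38), which help build complexes III and IV, and *Atpaf1* (0.68), which helps build ATP synthase, were higher. *Lyrm7* (-0.92), an assembly factor for the Rieske protein, *Foxred1* (-0.45), a complex I factor, and *Coa3* (-0.41), a complex IV factor, were lower. In either direction 15 of 50 assembly factors were called, beside 30.2% of all genes tested and 6 of 81 subunits.

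Of 19 electron carrier genes and subunits outside the naming rule, 3 were higher and 3 lower, with a median of 0.03 (3 and 2 in the 19). The ubiquinone synthesis genes *Coq7* (0.89) and *Coq5* (0.42) and the electron transfer flavoprotein dehydrogenase *Etfdh* (0.44) were higher, and *Coq3* (-1.02), *Coq2* (-0.61) and *Coq10a* (-0.35) lower, the last not called in the 19 (adjusted p = 0.0763). Of 24 genes of mitochondrial gene expression and its regulators, 4 were higher and none lower (1 lower at an unadjusted p under 0.05, 0 with DESeq2), with a median of 0.03 (3 and 0 in the 19). They included *Ppargc1a*, a coactivator of mitochondrial biogenesis (0.67, SE 0.18, adjusted p = 0.00686), *Esrra*, a nuclear receptor that works with it (0.76, adjusted p = 0.00330), and *Polrmt*, the mitochondrial RNA polymerase (0.62, adjusted p = 0.0128). Without the libraries that stand apart these were 0.71, 0.59 and 0.46.

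In the list of ATP export and phosphate exchange, 2 of 8 were higher and 1 lower, with a median of 0.16 (3 and 2 in the 19). They were the phosphate carrier *Slc25a3* (0.46, adjusted p = 6.63e-04) and the ADP/ATP carrier *Slc25a5* (0.30, adjusted p = 0.0459), and the lower one was mitochondrial creatine kinase *Ckmt1* (-0.41, adjusted p = 0.0194). Of 23 protein import and cristae genes 2 were higher, *Phb1* (0.46) and *Tomm5* (0.48), and *Tomm70a*, an import receptor, was lower (-0.38), with a median of -0.07 (2 and 3 in the 19). Of 78 mitochondrial ribosomal proteins 7 were higher, led by *Mrps6* (0.62), *Mrpl14* (0.80) and *Mrpl52* (0.85), and 4 lower, among them *Mrpl11* (-0.58), *Mrps17* (-0.38) and *Mrpl48* (-0.63), with a median of 0.08 (9 and 10 in the 19). Of 19 glycolysis genes 5 were higher and 1 lower, with a median of 0.01 (5 and 3 in the 19). Among the higher ones were *Slc2a1*, the glucose transporter (1.85, SE 0.24, adjusted p = 1.65e-06), *Ldhb*, lactate dehydrogenase B (1.08, SE 0.13, adjusted p = 2.96e-07), and *Pkm*, pyruvate kinase (0.66, SE 0.14, adjusted p = 5.58e-04), and the lower one was the brain aldolase *Aldoc* (-0.64, adjusted p = 0.0490).

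**Figure D5:**
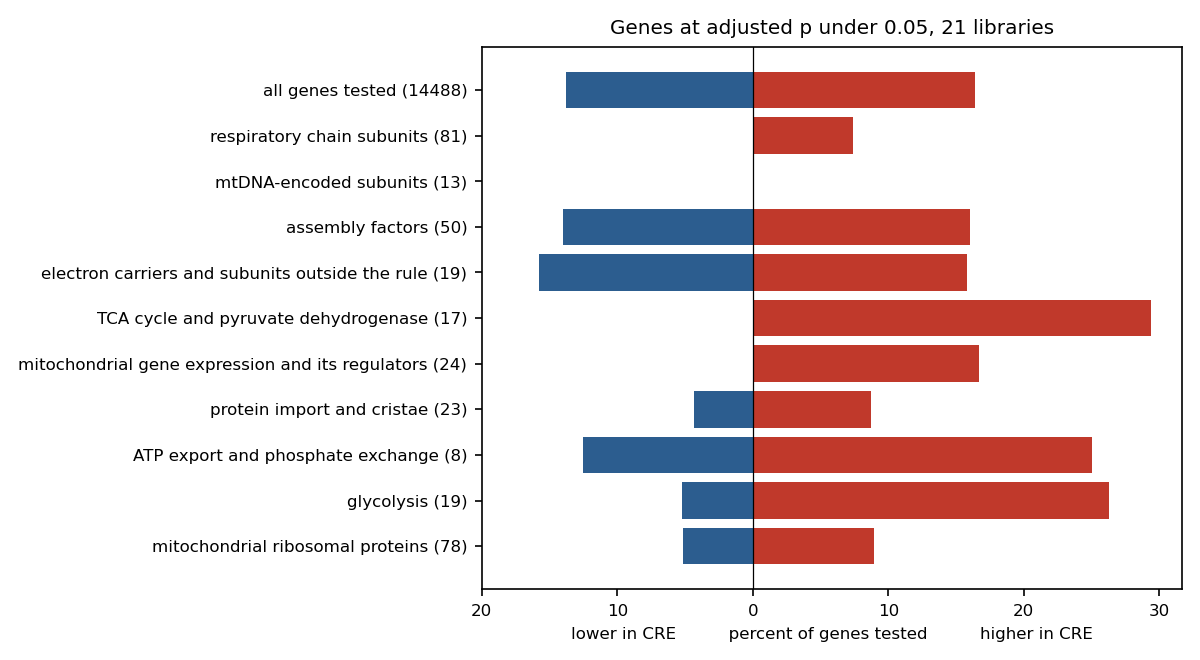
Percent of the genes tested in each list that were higher (right) or lower (left) in CRE at an adjusted p under 0.05 in the 21 libraries, with the number tested in parentheses. The respiratory chain subunits have calls to the right alone, 6 of 81, and fewer than all genes tested.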

How the data were processed

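The authors made the files. Libraries were prepared with Illumina Stranded mRNA Prep, and, per the submitters' processing notes, bcl2fastq 2.20.0.422, STAR 2.7.8a and featureCounts 1.5.0-p1 were used, with GRCm39 and Ensembl release 110. The authors deposited raw counts per gene and library, as whole numbers without normalization. How featureCounts treated strand and reads with several matches was not given in the sources used here.

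Counts were analysed with R 4.3.3 and edgeR 4.0.16 (filterByExpr, TMM factors, robust glmQLFit, glmQLFTest, Benjamini-Hochberg adjustment over all genes tested). Methods names CRE 1-3 and CRE 3-3 as removed, while the study's count table lacks CRE 3-3 and RFP 3-2, and the latter set was used. CPM used TMM factors over all 23 libraries. Levels per kilobase divide CPM by the canonical transcript of GENCODE M39, which named 56323 of 56941 identifiers. Isoform ratios were compared by permutation tests with a pseudocount of 0.5 CPM. DESeq2 1.42.0 was an alternative, as were other libraries, RLE scaling, no filter, a GC trend removed, culture as a block, sums per culture and cultures left out. The edgeR and DESeq2 fits were tested on simulated data. Other values came from Python 3.11.15 with numpy 2.4.6, pandas 2.3.3, scipy 1.17.1 and matplotlib 3.10.9.

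Genes were named by rule: up to 5 called subunits per complex and direction, the highest and lowest per kilobase, isoform pairs, subunits called in the culture test, and up to 3 called genes per list and direction. The subunits, the lists and the rule were chosen with earlier results of these data known, and 2 alternatives were added after seeing the data (both on the 19 libraries). *Eml4* and subunits called in the 19 libraries or by DESeq2 alone fall outside the rule. So do further subunits named without a call, such as *Ndufv2*, *Ndufs7*, *Sdha*, *Uqcrc2* and those at the ends of a range. The values of 1 called subunit are not reported here, though it is part of all counts, sums and medians. Totals per library ran from 1546796 to 17112815 counts over all 23. Same-numbered cultures did not deviate together (correlations of 0.03, 0.02 and 0.14), so the main comparison had no block, and fits within a number rest on the names alone.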

Additional observations from a re-analysis of the deposited data

Results flagged for a closer look

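Among the RFP libraries (n = 10), a single one lay farther from the rest than Dixon's test allows at the 95% level for 2 of 22 subunits examined, and chance flags about 1 in 20 groups. *Cox6b2* had 2.68 CPM in RFP 3-1, the highest RFP value, which is still below the lowest CRE value of 3.18. *Cox8a* had 334 CPM in RFP 2-4, a library with a low share of mitochondrial chromosome counts. CRE groups, with 11 libraries, were not examined in this way.

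The difference between CRE and RFP varied among the cultures for *Atp5f1c* in the 19 libraries, with log2 fold changes of 0.44, 0.49 and -0.33 in cultures 1, 2 and 3 (edgeR, adjusted p = 0.0306 for the difference). In the 21 libraries the adjusted p was 0.909.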

How the results depend on the processing

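Over 15 alternatives *Cox6b2* (log2 fold change 2.68 to 3.19), *Cox7a2l* (0.60 to 0.79) and *Nedd8* (-2.60 to -2.29) were called in each. *Sdhc* was called in 11 of 15 (lowest 0.20), *Uqcrc1* in 10 (0.17) and *Sdhd* in 8 (0.23), and all were higher in CRE in every one. The count of subunits higher in CRE, 6 in the main comparison, was 11 with all 23 libraries, 13 without the libraries Methods names, 11 in the 19 libraries, 11 with DESeq2 and 13 with the GC trend removed. It was 2 with sums per culture, 2 without culture 1, 2 without culture 2 and 13 without culture 3. In the 19 libraries it was 11 with the GC trend removed and 10 with culture as a block. The count lower in CRE, 0 in the main comparison, was 2 without the libraries Methods names, 2 in the 19 libraries (2 also with the GC trend removed or with culture as a block), 1 with DESeq2, 1 with sums per culture and 2 without culture 1. Of all genes, 16.4% were higher and 13.8% lower in the main comparison. These shares were 19.4% and 18.7% in the 19 libraries, and 18% and 15.1% with DESeq2. Over all 23 libraries 2357 of 14382 genes were higher and 1692 lower. For the other alternatives the shares of all genes are not given here. Those counts alone therefore do not set the subunits apart from other genes. The median log2 fold change of the 81 lay between 0.04 (without culture 1) and 0.25 (without culture 3). With culture as a block in the 21 libraries, 6 subunits were higher, and 4 with culture and library number as a block. *Uqcrc1* lost its call under both blocks and *Sdhd* under the second. In the condition by culture test 0 subunits passed in the 21 libraries, 1 in the 19 and 2 without the libraries Methods names. Beside these, 1 of 14488 genes, 36 of 14666 and 45 of 14482 passed. The *Cox6a2* to *Cox6a1* ratio, with a difference of 0.60, passed the threshold over all 23 libraries (0.57, adjusted p = 0.0443) and not in the 19 libraries or with a pseudocount of 0.1. The causes of these differences were not tested.

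The counts per library limit the lowest genes most. *Cox6b2*, *Cox5b-ps* and *Atp5mc2* had medians under 25 counts in RFP libraries.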
